A study of Mus musculus with 21 samples.

Results

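The epidermal kallikreins Klk5, Klk6, Klk7, Klk8, Klk10, Klk11, Klk13 and Klk14 and their inhibitor Spink5 were followed in mouse skin. They were chosen by gene symbol, 9 of the 55491 genes in the skin table, and all 9 were among the 19101 genes with enough counts to be tested. The study asked what overexpression of the type I interferon Ifnk in the epidermis does to skin. RNA-seq was done on polyA RNA from 9 skin samples of untreated mice, all 12 months old. WT samples (n = 3) were nonlesional skin of BALB/c mice without the transgene. TG nonlesional (NL, n = 2) and TG lesional (L, n = 4) samples came from Ifnk TG mice, which carry Ifnk under the keratin 14 promoter, active in basal keratinocytes, and had been backcrossed to BALB/c. Libraries are named below by group and by the sample number in the labels (WT 8 to WT 10, NL 2, NL 3 and L 4 to L 7). The labels do not say which mouse or body site each sample came from, or whether NL and L samples shared a mouse, so p-values measure only the spread between these samples, which may be technical. Counts of the members were also read in 12 inguinal lymph node samples, 3 each from WT and Ifnk TG mice that were left untreated or had received 250 mJ/cm2 UVB on 3 days a week for 2 weeks, with 2 further weeks of observation.

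Tissue kallikreins are secreted serine proteases made as inactive precursors. In the upper epidermis they cleave the corneodesmosomes that hold dead corneocytes together, so that the outer layer is shed, and they also process antimicrobial peptides and signal through the receptor PAR2. The Spink5 product LEKTI is cut into fragments that inhibit several of these proteases, and its loss causes Netherton syndrome, with overactive kallikreins, a detached stratum corneum and inflamed skin.

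The 8 kallikrein genes lie near each other on the plus strand of chromosome 7, with Klk12 and Klk9 among them, from the start of Klk14 at 43690418 to the end of Klk5 at 43851181 (GRCm38, GENCODE). All 8 were higher in lesional than in WT skin, by very unequal amounts. The bases just before the start of 5 of them are shown. Klk13, Klk14 and Klk6 were taken as the genes with the largest rise, Klk7 as the most abundant one and Klk10 as the gene with a GAS match. The sequences are RefSeq promoters (GRCm38.p6, plus strand, 5′ to 3′, up to 250 bases), and capitals mark matches of either strand to a searched motif.
Klk13, chr7:43712317-43712566: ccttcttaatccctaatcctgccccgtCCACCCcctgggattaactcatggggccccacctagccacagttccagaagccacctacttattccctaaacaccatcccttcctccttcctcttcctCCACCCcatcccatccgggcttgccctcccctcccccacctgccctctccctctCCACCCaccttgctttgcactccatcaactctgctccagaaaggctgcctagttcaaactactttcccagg
Klk14, chr7:43690168-43690417: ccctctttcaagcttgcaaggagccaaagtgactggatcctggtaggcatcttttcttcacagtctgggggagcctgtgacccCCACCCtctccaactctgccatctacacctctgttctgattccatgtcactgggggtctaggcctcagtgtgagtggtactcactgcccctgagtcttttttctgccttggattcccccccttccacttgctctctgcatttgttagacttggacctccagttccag
Klk6, chr7:43824294-43824498: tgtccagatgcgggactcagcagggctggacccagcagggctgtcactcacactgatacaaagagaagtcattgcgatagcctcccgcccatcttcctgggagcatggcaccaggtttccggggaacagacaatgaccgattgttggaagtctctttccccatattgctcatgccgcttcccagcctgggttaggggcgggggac
Klk7, chr7:43811044-43811293: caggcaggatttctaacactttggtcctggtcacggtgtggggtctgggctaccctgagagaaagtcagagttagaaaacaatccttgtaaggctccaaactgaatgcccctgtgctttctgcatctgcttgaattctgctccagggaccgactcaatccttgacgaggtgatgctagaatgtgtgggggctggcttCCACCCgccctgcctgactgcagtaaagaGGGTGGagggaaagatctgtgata
Klk10, chr7:43780804-43781034: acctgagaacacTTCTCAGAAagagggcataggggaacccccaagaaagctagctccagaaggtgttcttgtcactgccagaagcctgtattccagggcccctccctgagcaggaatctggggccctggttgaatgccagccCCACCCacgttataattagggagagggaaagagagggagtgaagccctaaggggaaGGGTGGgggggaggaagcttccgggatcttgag
A window was available for 7 of the 8 kallikreins, and Klk5 is not shown. The GAS motif bound by STAT proteins (TTCNNNGAA) was found in 1 of the 7 windows, that of Klk10, and in 7.02% of 32851 mouse promoter windows. The box bound by Krüppel-like factors (CCACCC) was found in 5 of the 7, against 28.1% of all windows, and this motif was added after the sequences had been read. The AP-1 site TGANTCA, the ISRE core GAAANNGAA and the TATA box TATAAA were found in 0 of the 7, against 6.75%, 7.13% and 12.4% of all windows. These matches describe letters and not binding.

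Skin libraries held 40499078 to 56511276 counts. Ifnk itself was counted 5 to 14 times in each L library, 6 and 0 times in NL 2 and NL 3 and 0 times in the WT libraries, and 3 counts correspond to at most 7.41e-06% of a skin library. The keratinocyte genes Krt14 and Krt5 were abundant in every library (1220 to 4665 and 1774 to 4480 CPM, counts scaled to library size). Tissue content differed between the groups: the summed level of 10 hair shaft genes was 5.32 to 16.1 CPM in WT and NL and 4207 to 12851 CPM in L, that of 10 skeletal muscle genes was 27319 to 40648 CPM in WT and NL and 28.4 to 7738 CPM in L, and that of 8 adipocyte genes was 7771 to 13970 CPM and 1051 to 4971 CPM. The summed level of 7 neutrophil genes was 10.3 to 20.4 CPM in WT and NL and 64.0 to 573 CPM in L, highest in L 4. Of its L mean of 213 CPM, S100a8 and S100a9, also listed below as keratinocyte stress genes, held 70.9 and 115 CPM. Of the others, Cxcr2 was higher in every L than in every WT library. Mmp8, Retnlg and Csf3r overlapped between L and WT, and Ly6g had at most 11 counts. The summed level of 5 melanocyte genes was 7.53 to 17.7 CPM in WT and NL and 98.5 to 589 CPM in L, highest in L 7. The part of these differences in the results below was not tested. Xist, an RNA of the inactive X chromosome, was counted 13 times in NL 3 and 6 times in L 6 and 3297 to 9353 times in the other 7 libraries. In whole skin, fewer cells of a type and less RNA per cell cannot be told apart.

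All 8 proteases were higher in lesional than in WT skin and Spink5 was not (edgeR's quasi-likelihood test, Benjamini-Hochberg adjusted over all tested genes, threshold 0.05). The rises ran from 2.02-fold for Klk5 to 276-fold for Klk13, with a median log2 fold change of 2.44 over the 8 proteases and 0.06 over all tested genes. Of all tested genes, 23.0% passed as higher in the same comparison and 20.2% as lower. Among the 8 proteases, Klk14 had enough counts to be tested only through L skin. In 7 of the 9 members every L library was above every WT library, which held for 26.0% of all tested genes.

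**Figure D1:**
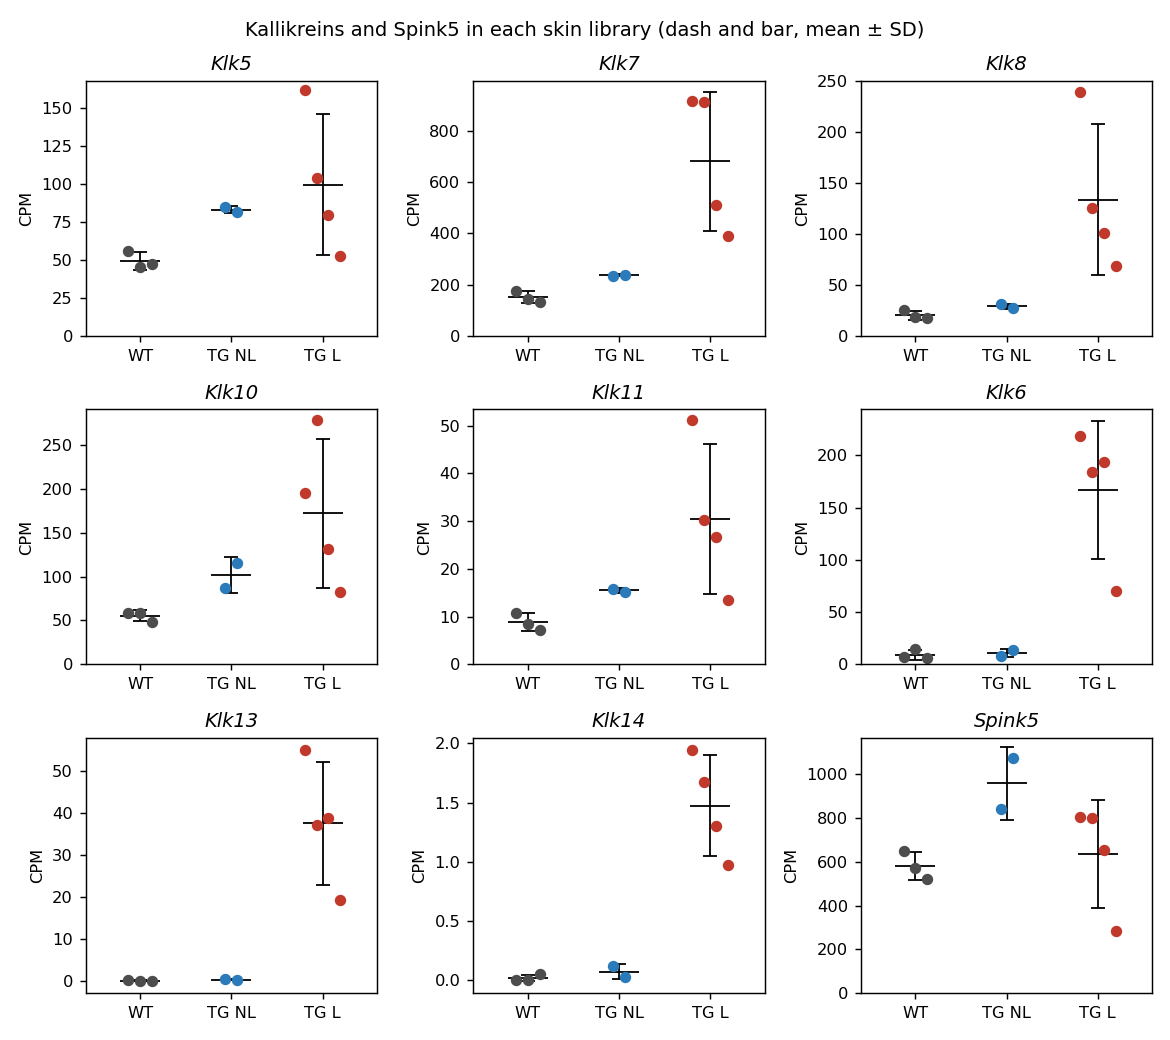
CPM (linear axis) of each gene in the 3 WT, 2 TG NL and 4 TG L skin libraries, with 1 point per library, the mean as a dash and the SD as a bar. Klk6, Klk13 and Klk14 sit near the baseline in WT and NL skin and rise in all 4 L libraries, whereas the Spink5 points of L skin spread from 281 to 806 CPM around those of WT skin.

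Klk5 and Klk7 form the core of the shedding cascade. Klk5 is a trypsin-like enzyme that can activate itself and then the precursors of Klk7 and Klk14. Its level was 55.9, 45.2 and 47.2 CPM in WT 8 to WT 10, 84.9 and 81.5 CPM in NL 2 and NL 3, and 162, 104, 79.9 and 52.7 CPM in L 4 to L 7. L 7 fell inside the WT range, so the groups overlapped. The fitted rise in L against WT was 2.02-fold (95% interval 1.19 to 3.41, adjusted p = 0.0372). This call was the least secure of the 8, since its adjusted p exceeded 0.05 in 9 of 18 alternative analyses. Leaving out WT 8, WT 9, WT 10, NL 2, NL 3 or L 5 gave adjusted p of 0.0589 to 0.114, and scaling the libraries to keratinocyte genes gave 0.281 at a log2 fold change of 0.34. Of the 14 genes used for this scaling, 7 themselves passed as higher in L against WT, with a median log2 fold change of 0.72 over the 14. The chymotrypsin-like Klk7, which cleaves corneodesmosin and desmocollin 1, was the most abundant of the proteases, at 177, 145 and 134 CPM in WT, 233 and 240 CPM in NL, and 914, 911, 509 and 389 CPM in L skin. The lowest L library was above both other groups. Klk7 rose 4.49-fold against WT (2.72 to 7.40, adjusted p = 0.00105).

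Klk8, Klk6, Klk11 and Klk10 are further enzymes of the differentiated epidermis. Klk8 (neuropsin), a trypsin-like protease also known from the brain, measured 25.5, 18.3 and 17.4 CPM in WT, 30.9 and 27.2 CPM in NL, and 239, 126, 101 and 69.1 CPM in L skin. All L libraries lay above all others, L 4 highest, and the rise against WT was 6.54-fold (3.37 to 12.7, adjusted p = 0.00151). Klk6 (neurosin), a trypsin-like protease best known from the nervous system, measured 7.00, 14.7 and 5.81 CPM in WT, 8.43 and 13.4 CPM in NL, and 219, 184, 193 and 70.0 CPM in L skin. The WT and NL libraries overlapped and the L libraries stood clear of both, with a rise of 18.1-fold against WT (7.79 to 42.2, adjusted p = 0.000713). Klk11 measured 10.8, 8.43 and 7.12 CPM in WT, 15.9 and 15.2 CPM in NL, and 51.2, 30.3, 26.8 and 13.4 CPM in L skin. Its L 7 value was above WT but below NL, and the rise against WT was 3.46-fold (1.82 to 6.56, adjusted p = 0.00834). Klk10, for which proteolytic activity is less well established, measured 59.1, 58.5 and 48.3 CPM in WT, 87.3 and 115.9 CPM in NL, and 195, 279, 132 and 82.6 CPM in L skin. Again only L 7 lay below both NL libraries, and Klk10 rose 3.11-fold against WT (1.71 to 5.65, adjusted p = 0.0092).

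Klk13 and Klk14 were close to undetected outside lesions. Klk13, a trypsin-like protease, gave 13, 4 and 0 counts in WT, 22 and 11 counts in NL, and 3024, 1508, 1759 and 1073 counts in L skin, or 55.1, 37.2, 38.8 and 19.3 CPM in the latter. The lowest L library was far above the highest NL library. The rise was 276-fold against WT (84.7 to 900, adjusted p = 0.000197), and the ratio of pooled counts, 7364 against 17, was 279 with a counting interval of 174 to 479. Klk14, a potent trypsin-like protease activated by Klk5, gave 0, 0 and 2 counts in WT, 6 and 1 counts in NL, and 107, 68, 59 and 54 counts in L skin. It stayed the least abundant of the 8 in L skin, at 0.973 to 1.95 CPM. Klk14 had enough counts to be tested only through L skin, so its call as higher was nearly fixed in advance. With 2 counts in all WT libraries the size of its rise is poorly fixed: the ratio of pooled counts was 92.7 with a counting interval of 25.4 to 769, and the adjusted p of edgeR was 0.000757. An antisense RNA, 2310002F09Rik, shares 24.81% of the exon bases of Klk8 and 22.58% of those of Klk14, and strand use in counting is not given in the sources used here. That RNA had 22 to 24 counts in WT and 15 to 84 counts in L skin.

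**Figure D2:**
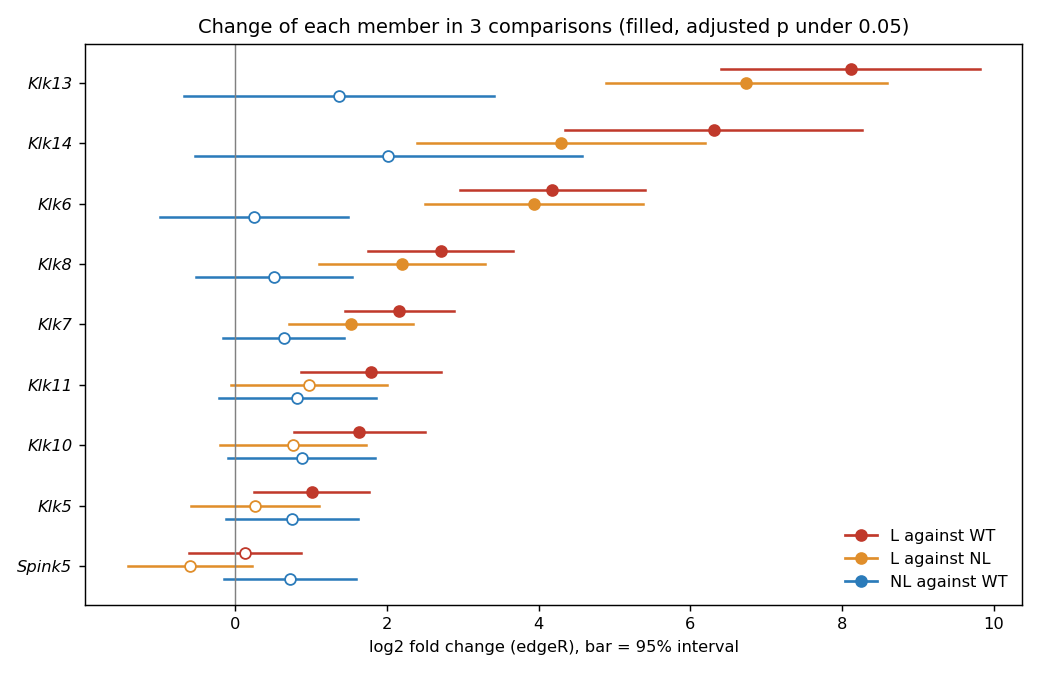
Log2 fold change of each gene (horizontal axis) with its 95% interval in the comparisons L against WT, L against NL and NL against WT, with filled points for an adjusted p under 0.05. The 8 proteases are filled for L against WT, 5 of them also for L against NL and none for NL against WT, and Spink5 is open throughout.

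Spink5 (chromosome 18, 43963235 to 44022501, plus strand, GRCm38) was abundant in all skin libraries. It measured 648, 571 and 521 CPM in WT, 841 and 1076 CPM in NL, and 806, 802, 652 and 281 CPM in L skin. The L libraries lay on both sides of the WT range. Their difference from WT on the log2 scale was 0.13 (95% interval -0.61 to 0.87, adjusted p = 0.769), which leaves room for changes of up to 1.83-fold upward or to 0.656 of the WT level. Scaling to keratinocyte genes turned this difference to -0.55 (adjusted p = 0.07), and leaving out L 4 brought it to -0.00228. All 4 L libraries were below both NL libraries, as in 24.7% of all tested genes, but the difference of -0.59 on the log2 scale did not pass the test (adjusted p = 0.258).

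Against nonlesional skin of the same genotype, 5 of the 8 proteases were higher in lesions, Klk6, Klk7, Klk8, Klk13 and Klk14. Klk14 had enough counts to be tested only through L skin, so its call was nearly fixed in advance here too. Of all tested genes 13.2% passed as higher and 11.8% as lower in this comparison. The median log2 fold change was 1.86 over the 8 proteases and 0.03 over all tested genes. The same 5 had every L library above both NL libraries, which held for 24.7% of all tested genes. The log2 fold changes of those that passed were 1.53 for Klk7 (SE 0.36), 2.20 for Klk8 (SE 0.48), 3.93 for Klk6 (SE 0.62), 4.29 for Klk14 (SE 0.84) and 6.74 for Klk13 (SE 0.81), with adjusted p from 0.00163 to 0.0169. Klk10, Klk11 and Klk5 overlapped between L and NL skin, with log2 fold changes of 0.76, 0.97 and 0.26 and adjusted p of 0.218, 0.148 and 0.644. These calls rest on 2 NL libraries. With either NL library left out, where the lone NL sample is assumed to vary like the other groups, 2 members passed, Klk13 and Klk14 without NL 2 and Klk13 and Klk6 without NL 3. Without L 7, the lowest library, 7 members passed, Klk10 and Klk11 being added.

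In nonlesional TG skin against WT no member passed the test, and 0% of all tested genes passed as higher. edgeR called 0 genes in either direction, although 1465 genes had an unadjusted p under 0.05, and DESeq2 called 62 genes higher and 17 lower, none of them a member. The fitted differences were nevertheless positive for all 9 members, from 0.25 for Klk6 to 2.02 for Klk14 on the log2 scale, with unadjusted p from 0.0706 to 0.656. Both NL libraries were above all 3 WT libraries for Klk5, Klk7, Klk8, Klk10, Klk11 and Spink5, 6 of the 9 members, against 18.6% of all tested genes. The median difference was 0.75 over the members, 0.69 over 14 general keratinocyte genes, all of them positive, and -0.00114 over all tested genes. With libraries scaled to those 14 genes, the differences of Klk7, Klk8 and Klk6 turned to -0.00923, -0.127 and -0.441 and that of Spink5 fell to 0.07. Those of the other members stayed positive under this scaling. They were no lower than 0.101 for Klk5, 0.179 for Klk11, 0.212 for Klk10, 0.781 for Klk13 and 1.43 for Klk14.

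Per length of transcript, the order of the genes changed in lesions. In WT skin mean levels per kb of exon were 121 CPM for Spink5, 80.0 for Klk7, 40.3 for Klk10, 37.0 for Klk5, 13.3 for Klk8, 6.07 for Klk6, 6.00 for Klk11, 0.0568 for Klk13 and 0.013 for Klk14. The ranges of Klk10 and Klk5 overlapped, as did those of Klk6 and Klk11. In L skin the same means were 359 CPM per kb for Klk7, 133 for Spink5, 125 for Klk10, 110 for Klk6, 86.8 for Klk8, 74.6 for Klk5, 20.7 for Klk11, 16.4 for Klk13 and 1.16 for Klk14. Here the ranges of Spink5, Klk10, Klk6, Klk8 and Klk5 overlapped, and so did those of Klk11 and Klk13, whereas Klk7 was above Spink5 in each of the 4 libraries.

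Within the protease transcripts, lesions held more of Klk6, Klk8, Klk13 and Klk14 and less of Klk5 and Klk10. Klk6 made up 2.24% to 5.39% of the summed CPM per kb of the 8 proteases in WT, 1.94% to 2.87% in NL and 11.2% to 19.6% in L skin. Klk5 made up 18.8% to 21.9% in WT, 19.8% to 22.2% in NL and 7.76% to 11.0% in L skin. Neither gene's L range overlapped the others. Klk10 made up 20.8% to 23.6% in WT, 22.2% to 27.3% in NL and 12.8% to 20.2% in L skin, again without overlap. The shares of Klk7 overlapped, 42.4% to 45.1% in WT, 40.9% to 42.9% in NL and 41.1% to 49.5% in L skin. Klk13 held at most 0.0638% outside lesions and 1.61% to 2.58% in L skin, Klk8 at most 8.02% and 8.16% to 14.0%, and Klk14 at most 0.0314% and 0.132% to 0.185%. These shares are descriptions with no test.

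**Figure D3:**
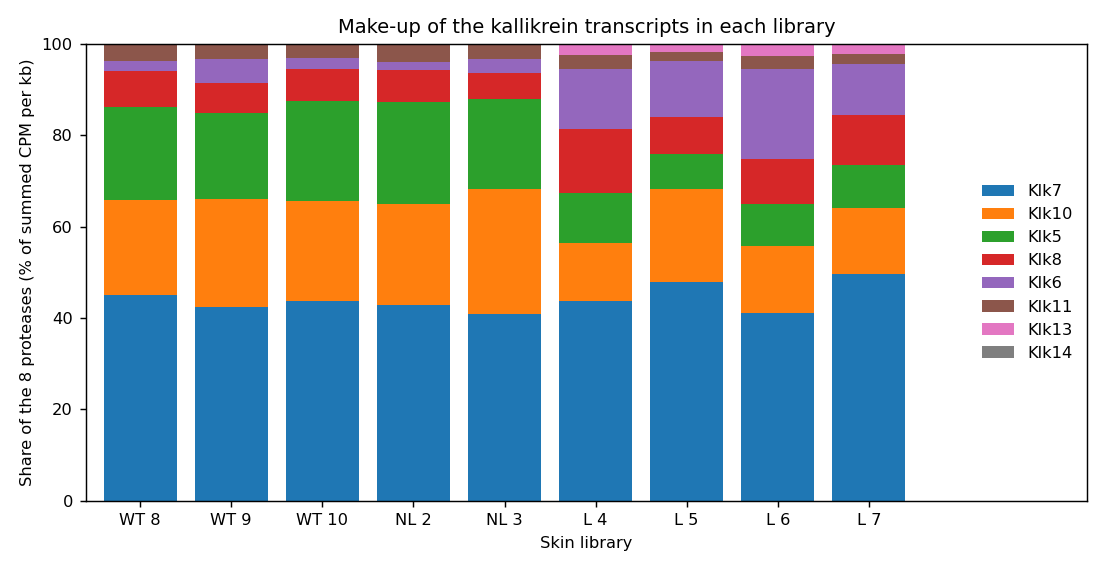
Share of each of the 8 proteases in their summed CPM per kb (vertical axis, percent), with 1 stacked bar per skin library. In the 4 L bars the Klk6 segment is 11.2% to 19.6%, above its 1.94% to 5.39% in WT and NL, and the Klk5 segment is 7.76% to 11.0%, below its 18.8% to 22.2%.

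In lesions the summed protease transcripts were higher relative to those of Spink5. The sum of the 8 proteases was 207, 180 and 161 CPM per kb in WT, 287 and 309 CPM per kb in NL, and 1106, 1003, 653 and 414 CPM per kb in L skin. The mean was 4.35 times that of WT in L skin and 1.63 times in NL skin. Divided by Spink5 in the same library, a ratio that no scaling of libraries can change, the sum was 1.53, 1.51 and 1.48 in WT and 1.63 and 1.37 in NL skin. In L skin the ratio was 6.56, 5.98, 4.79 and 7.05. The NL ratios lay on either side of the WT range, and every L library was above every other library, including L 7, whose members were all low. The ratio of Klk7 alone to Spink5 was 0.562 to 0.700 in WT and NL and 1.97 to 3.49 in L skin, and that of Klk5 was 0.271 to 0.362 and 0.439 to 0.72. Other inhibitors are not part of these ratios. The summed level of 8 other protease inhibitors was 565 to 714 CPM in WT, 967 to 1195 CPM in NL and 944 to 2549 CPM in L skin. The cystatin Cst6 held the largest part, with means of 394 CPM in WT, 656 CPM in NL and 1209 CPM in L skin. Serpina12, which inhibits Klk7, had means of 129 CPM in WT, 222 CPM in NL and 96.3 CPM in L skin. The list was not limited to inhibitors of kallikreins, so the sum is no measure of their inhibition. The ratios are given as a description of transcripts, with no test.

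**Figure D4:**
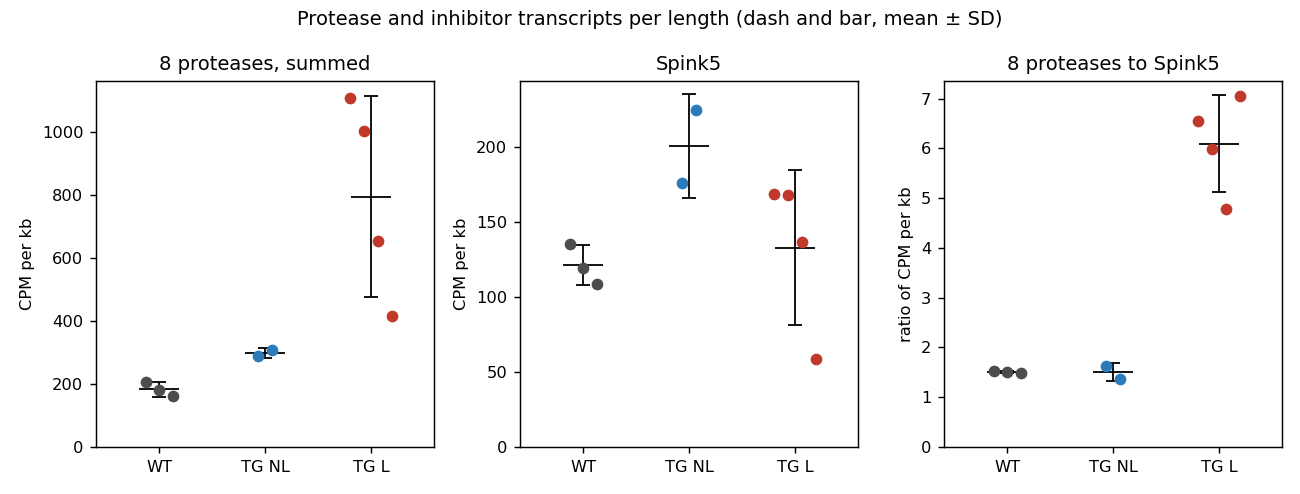
Summed CPM per kb of the 8 proteases, CPM per kb of Spink5 and the ratio of the former to the latter, with 1 point per skin library, the mean as a dash and the SD as a bar. The ratio is 1.37 to 1.63 in the WT and NL libraries and 4.79 to 7.05 in the L libraries, although the Spink5 levels of L and WT skin overlap.

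The lesional libraries differed among themselves in level. L 4 was highest for 8 of the 9 members and L 5 for Klk10, and L 7 was lowest for all 9. The highest over the lowest L library was 2.00-fold for Klk14, 2.35-fold for Klk7 and 3.82-fold for Klk11, the widest. The summed level of the 14 general keratinocyte genes was 10094 CPM in L 7 and 16528 to 19018 CPM in the other L libraries, and that of 8 keratinocyte stress genes was 1838 CPM against 3826 to 5606 CPM. L 7 also had the highest summed hair shaft level, 12851 CPM, and L 4 the lowest of the L libraries, 4207 CPM. The part of these differences in the spread of the members was not tested.

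The members are part of a cluster of 26 protein-coding kallikrein genes on chromosome 7 that spans 539.2 kb from Klk14 to Klk1, all on the plus strand. Of the other 18, 5 had enough counts to be tested, Klk9, Klk12, Klk15, Klk4 and Klk1. All 5 passed as higher in L against WT, as did 23.0% of all tested genes, and their median log2 fold change was 3.83. Against NL skin 3 of the 5 passed as higher, as did 13.2% of all tested genes. The largest fitted values were those of Klk15 and Klk4. Klk15 had 0 counts in all WT and NL libraries and 17 to 87 in L skin, at least 40.3-fold higher than WT when WT is set to 3 counts over the group. Klk4 had 0 counts in WT, 0 and 1 in NL and 0 to 28 in L skin, at least 9.87-fold higher than WT by the same floor, and its groups overlapped. The remaining 13 genes, all of the Klk1b family, had too few counts in skin to be tested. The 12 neighbors from Klk14 to Klk15 thus all passed as higher. Of the tested kallikreins, Klk1, Klk4, Klk14 and Klk15 had at most 9 counts in any WT or NL library. They had enough counts to be tested only through L skin, so their calls as higher were nearly fixed in advance. The genes of the Klk1b block that follows had at most 15 counts in any skin library, that value being Klk1b27 in L skin.

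**Figure D5:**
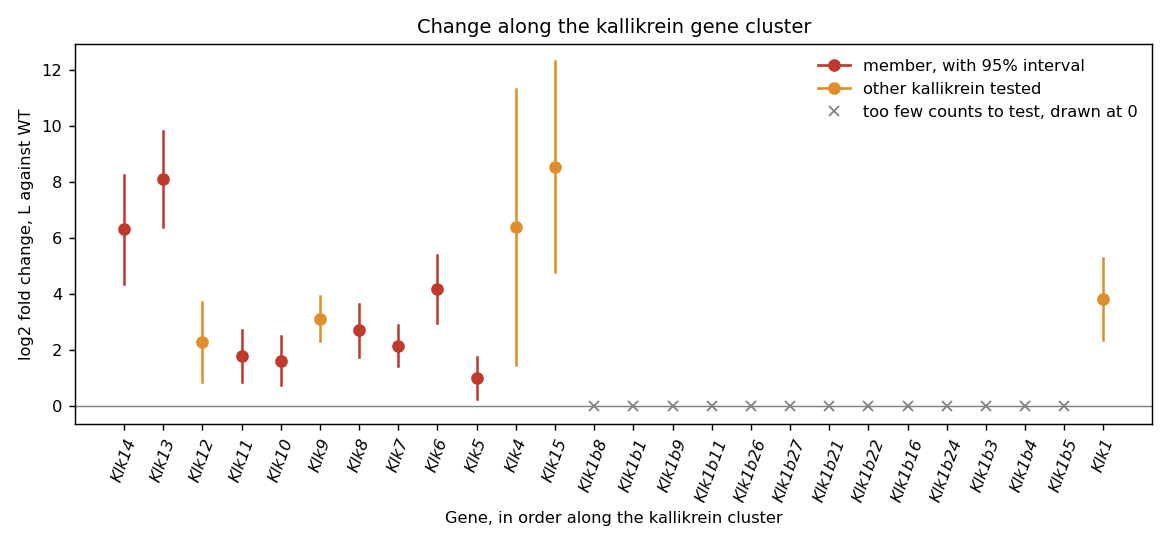
Log2 fold change of L against WT skin (vertical axis) with its 95% interval for the 26 kallikrein genes in their order along the cluster, with members and other genes in separate colors and genes with too few counts as crosses at 0. All 12 genes from Klk14 to Klk15 and the last gene, Klk1, were higher in L skin, and the 13 crosses between are the Klk1b genes. Klk1, Klk4, Klk14 and Klk15 had enough counts to be tested only through L skin.

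Genes that act on or beside the kallikreins were followed in lists chosen by function. Of all tested genes, 23.0% passed as higher and 20.2% as lower in L against WT, and 13.2% and 11.8% in L against NL. Among 7 tested protease inhibitors other than Spink5, 5 passed as higher in L against WT and 0 as lower, with a median log2 fold change of 1.62. Spink12, a further Kazal-type inhibitor gene, rose most (6.22, SE 0.92, adjusted p = 0.00114), followed by Slpi, the secretory leukocyte protease inhibitor (3.52, SE 0.58, adjusted p = 0.00181). Spink12 had 0 to 6 counts per library in WT, 0 to 2 in NL and 140 to 544 in L skin. It had enough counts to be tested only through L skin, so its calls as higher were nearly fixed in advance. Spint1 and Spint2, which restrain the matriptase St14, and the cystatin Cst6 also passed, while Serpina12, which inhibits Klk7, and Spink6 did not (log2 fold changes of -0.42 and 0.47). Against NL skin 3 of the 7 inhibitors passed as higher and 0 as lower. Serpina12 was lower in every L library than in both NL libraries, as were 24.7% of all tested genes. Its difference of -1.20 on the log2 scale did not pass the test (adjusted p = 0.0701). Of 5 tested membrane and metalloproteases that can act upstream of kallikreins 4 passed as higher, among them Tmprss11e (3.83, SE 0.36, adjusted p = 0.000195) and St14 (1.90, SE 0.14, adjusted p = 6.7e-05), and Mep1a did not pass. Against NL skin 3 of these 5 passed as higher.

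Among 8 known substrates or targets, 6 passed as higher in L against WT and 0 as lower, with a median log2 fold change of 1.04. The shares of all tested genes were 23.0% and 20.2% here, and 13.2% and 11.8% in L against NL. Camp, the precursor of the antimicrobial peptide cathelicidin, went from 1 count over the WT libraries to 5 to 58 counts per L library, a ratio of pooled counts of 67.6 with a counting interval of 11.9 to 2695. With 1 to 2 counts per NL library, Camp had enough counts to be tested only through L skin. Its calls as higher were thus nearly fixed in advance. Flg, whose product profilaggrin is processed in the cornified layer, rose by 4.26 on the log2 scale (SE 0.43, adjusted p = 0.000254). The corneodesmosome genes Cdsn, Dsc1 and Dsg1b rose by 1.12, 0.96 and 1.52, and Dsg1a and the PAR2 gene F2rl1 did not pass. Against NL skin 4 of the 8 passed as higher. Of 9 other proteases listed for the cornified layer 7 passed as higher, led by Casp14 (3.59, SE 0.34, adjusted p = 0.000213) and Asprv1 (2.17, SE 0.27, adjusted p = 0.000493). The 7 also held the cathepsin genes Ctsd, Ctsl, Ctsc and Ctsh. Whole skin does not show which cells their RNA came from. In L against NL 7 of these 9 passed as higher and the calpain gene Capn1 as lower, by -0.37 on the log2 scale (adjusted p = 0.0316).

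Genes of the keratinocyte layers moved unequally. Of 10 suprabasal keratinocyte genes, 5 passed as higher in L against WT and 0 as lower, with a median log2 fold change of 1.17. The shares of all tested genes were 23.0% and 20.2% here, and 13.2% and 11.8% in L against NL. The largest rises in L against WT were those of Krt2 (4.23, SE 1.46, adjusted p = 0.0467), whose groups overlapped, and the transglutaminase Tgm3 (4.21, SE 0.29, adjusted p = 6.48e-05). Lor, Krt10, Sbsn, Dmkn and Flg2 did not pass. Of 7 basal genes 1 passed as higher, Krt14 (1.41, SE 0.36, adjusted p = 0.0131), and 1 as lower, Krt15 (-0.93, SE 0.32, adjusted p = 0.0447). Against NL skin 3 of the 10 suprabasal genes passed as higher, and of the basal genes 0 passed as higher and 3 as lower, Krt15 (-1.66), Col17a1 (-1.20) and Itgb4 (-0.66). All 8 keratinocyte stress genes rose, with a median of 5.60, among them Sprr2d (7.42, SE 0.90, adjusted p = 0.000524) and Sprr1b, with 0 to 7 counts per library in WT and 1548 to 6620 in L skin, and 7 of the 8 passed against NL skin. Sprr2d had 1 to 7 counts per library in WT, 6 and 45 in NL and 381 to 1423 in L skin. It had enough counts to be tested only through L skin, so its calls as higher were nearly fixed in advance. S100a8 and S100a9 of this list are also neutrophil genes, and of the 6 neutrophil genes tested these and Cxcr2 passed as higher in L against WT. Scaling the libraries to the 14 general keratinocyte genes lowered the median of all genes in L against WT by 0.58 on the log2 scale. Of these 14 genes, 7 passed as higher and 0 as lower in that comparison before scaling, with a median of 0.72. Under this scaling 7 of the 8 proteases still passed, at log2 fold changes of 0.96 for Klk10, 1.11 for Klk11, 1.51 for Klk7, 2.04 for Klk8, 3.47 for Klk6, 5.71 for Klk14 and 7.49 for Klk13.

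The pattern of each member over the 9 skin libraries was matched to those of all other tested genes by the root mean square difference of centered log2 CPM. The nearest pairs among members were Klk7 and Klk11 (0.35), Klk10 and Klk11 (0.35) and Klk7 and Klk8 (0.36), and Spink5 was nearest to Klk5 (0.49). Among other genes, the 3 nearest were Rps6ka6, Pla2g2f and Rhbdl2 for Klk5 (0.10 to 0.14), Tmem40, Cpa4 and Ivl for Klk7 (0.15 to 0.18), Lce1f, Il1f9 and Apol8 for Klk8 (0.18 to 0.27), Cst6, Crct1 and Atp6v1c2 for Klk10 (0.08 to 0.21) and Slc6a20a, Tmprss4 and Nrip3 for Klk11 (0.14 to 0.21). For Klk6 they were Il1f8, Flg and Slc34a2 (0.37 to 0.43), for Klk14 Tnc, Lce1g and Gm49890 (0.34 to 0.48), for Spink5 Fndc9, Il22ra1 and Itprid2 (each 0.11), and for Klk13 Gjb2, Tdh and Uox (0.83 to 0.90). The distance is not scaled to the size of a gene's change and takes in counting noise. Klk13 had the largest change of the members and 0 to 13 counts per WT library. Its larger distances therefore do not show that its pattern lacks a match. These distances are a description over 9 libraries in 3 groups.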

How the data were processed

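PolyA RNA of 9 skin samples was sequenced as paired reads. Per the labels, the submitters' processing notes name cutadapt 4.8, STAR 2.7.8a, RSEM 1.3.3 and GRCm38. The annotation release and the strand setting are not given in the sources used here. The authors deposited RSEM expected counts per gene, as whole numbers without normalization. Groups came from the labels. Libraries of lymph nodes of the same study were deposited in a separate table and were used here only for counts of the members and of an RNA antisense to Klk8.

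edgeR 4.0.16 was run in R 4.3.3. Genes passed filterByExpr (minimum count 10, minimum total 15), and counts were scaled by TMM and fitted together over the 3 skin groups with the robust quasi-likelihood model. P-values were adjusted over 19101 genes by the Benjamini-Hochberg method (threshold 0.05). SEs were derived from the F statistic. Levels are TMM-scaled CPM, and levels between genes were compared per kb of merged exons (GENCODE M21). Count ratios have exact conditional 95% intervals, which, like the floor of 3 counts, cover counting error only, as reads carry no molecular identifiers. The pipeline was tested on simulated counts.

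The members and gene lists were chosen with earlier results of these data known. All members are named. Of each other list, the 2 passing genes with the largest change in L against WT and passing genes against their list's direction are named, and others were named after their values were seen. For each member the 3 nearest genes are given. The hair shaft list held 1 gene not analysed here, and 1 gene taken off the list of substrates after its values were seen is not reported here. Alternatives were DESeq2 1.42.0, other scalings and filters, a fit of the compared groups, a fit without robust estimation and each library left out. Protein sequences were not used here.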

Additional observations from a re-analysis of the deposited data

Results flagged for a closer look

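Outside the skin comparisons, the table of 12 inguinal lymph node libraries held more than 8 counts of 1 member. Klk8 was counted 1275 to 2178 times in every node library (39.9 to 62.9 CPM of all counts), in both genotypes and whether or not UVB had been given, above the limit of 3 counts that a count of 0 allows. The ranges were 1623 to 1818 counts in untreated WT, 1685 to 1856 in untreated TG, 1275 to 1601 in UVB-treated WT and 1419 to 2178 in UVB-treated TG nodes. Of the other 8 members, the highest count in any node library was 8, for Klk7, and Klk5, Klk6 and Klk13 had 0 counts in all 12, which allows a share of up to 1.09e-05% of the shallowest library. The antisense RNA 2310002F09Rik, which overlaps Klk8, had 4 to 18 counts in the nodes. Node and skin tables were scaled separately, so their levels are not compared by a test.

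Among 21 checks of a single far library in the 4 L samples (levels, ratios and shares of the members), 0 were past Dixon's 95% limit, where chance gives about 1 in 20.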

How the results depend on the processing

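No paired analysis was possible because the skin groups share no sample number in the labels. Over 18 alternatives the number of proteases called higher in L against WT stayed between 6 and 8. It was 6 where genes needed 10 counts in every library, which takes Klk13 and Klk14 out of the test. In L against NL that filter left 3 of 5 calls, for the same cause, and leaving out 1 library gave 2 to 7. NL against WT gave 0 members in all 18. Klk5 in L against WT was called in 9 of 18, with log2 fold changes from 0.34 to 1.22.

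Directions turned for members that were not called. Scaling to keratinocyte genes gave -0.55 for Spink5 in L against WT, and -0.441, -0.00923 and -0.127 for Klk6, Klk7 and Klk8 in NL against WT. With 1 library left out, Spink5 in L against WT ran from -0.00228 (without L 4) to 0.379, Klk5 in L against NL from -0.0771 (without L 4) to 0.473 and Klk6 in NL against WT from -0.152 (without NL 3) to 0.76. The cause was not tested. The keratinocyte scaling also changed calls over all genes in L against WT from 4386 higher and 3851 lower to 1435 and 6315, and in L against NL from 2519 and 2263 to 1278 and 837. Without NL 2 or NL 3, calls in L against NL were 810 and 657 higher and 660 and 525 lower, and a fit of L and NL alone gave 1339 lower. In NL against WT, DESeq2 gave 62 higher and 17 lower against 0, and the fit of the compared groups 1 lower. Depth limits Klk14 outside lesions, at 0 to 6 counts per library.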
